A study of Mus musculus with 16 samples.

Results

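The regions described here are 6013 distal enhancers of mouse CD8+ T cells that carried an H3K4me1 peak after treatment with the LSD1 inhibitor GSK2879552 (GSK) and none after vehicle (Veh). They were 22.5% of the 26676 enhancers built from the peak lists and are called gained below. An enhancer was a region of overlapping H3K4me1 and H3K4me2 peaks of either treatment that overlapped no H3K4me3 peak and lay more than 2.5 kb from a curated transcription start site (TSS). The other enhancers were 17898 with H3K4me1 in both treatments (shared), 2633 with H3K4me1 in Veh only (lost, 9.87%) and 132 with H3K4me2 alone. Of 9842 merged regions with H3K4me1 in GSK only, 1666 were left out for an H3K4me3 peak and 2163 more for their distance from a TSS.

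CD8+ T cells came from the spleens of OT1 mice, in which a transgenic T cell receptor recognises a peptide of ovalbumin. They were activated with antibodies to CD3 and CD28 for 48 h and expanded with IL-2 for 3 d, with 0.5 µM GSK or with vehicle. Chromatin immunoprecipitation and sequencing was carried out for H3K4me1, H3K27ac, H3K4me2, H3K4me3, RNA polymerase II (Pol II) and LSD1, with 1 library for each antibody and treatment. The peak lists analysed here hold no replicates, although the study states that its ChIP experiments were repeated, so no difference below was tested and none was set against a spread between samples. Intervals are 95% intervals for counting error over regions, and neighbouring regions are not independent. In libraries of bulk cells, a mark that changed in each cell cannot be told apart from a change in the mix of cells. Promoters of the T cell markers Cd3e, Cd3d, Cd3g, Cd8a, Cd8b1, Lck, Zap70 and Lat had an H3K4me3 peak in both treatments. Pol II peaks lay at Cd3e, Cd8b1, Lck, Zap70 and Lat in both treatments and at Cd3d and Cd3g in GSK alone, while Cd8a had none. Of 8 B cell markers, 2 (Cd79b and Ebf1) had promoter H3K4me3 in both treatments and none had Pol II. Of 10 myeloid markers, 4 had H3K4me3 in Veh and 3 in GSK, and 1 had Pol II in Veh (Spi1) and 0 in GSK.

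H3K4me1 marks enhancers, both those in use and those held ready, and H3K27ac is added where an enhancer is active. LSD1 is the demethylase that erases H3K4me1 and H3K4me2 and works within corepressor complexes such as CoREST. In CD8+ T cells, enhancers bound by RUNX, ETS, T-box and AP-1 factors shape the choice between effector, memory and exhausted states.

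The sequences of 6 windows of 200 bp are given first, chosen by strong signals at gained enhancers in 3 of the marks. Those chosen by LSD1 lie beside a gained enhancer and not in it. All are the plus strand of GRCm38.p6 (mm10) and are named by the nearest gene. The first 3 are centred on the gained enhancers with the most significant GSK H3K4me1 peaks, and capitals mark short tandem repeats, in which a unit of up to 6 bp recurs over at least 20 bp.

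Mir6546 chr1:171073866-171074065: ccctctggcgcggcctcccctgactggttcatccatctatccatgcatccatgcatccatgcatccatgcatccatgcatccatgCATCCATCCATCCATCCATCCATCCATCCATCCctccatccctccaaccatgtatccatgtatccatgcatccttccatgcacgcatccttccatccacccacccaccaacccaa
Ccr1 chr9:123932274-123932473: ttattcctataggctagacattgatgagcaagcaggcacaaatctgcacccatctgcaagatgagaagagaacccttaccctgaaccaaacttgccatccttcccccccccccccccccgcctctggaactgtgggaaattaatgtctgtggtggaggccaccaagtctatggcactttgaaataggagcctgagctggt
Gm30214 chr14:53166171-53166370: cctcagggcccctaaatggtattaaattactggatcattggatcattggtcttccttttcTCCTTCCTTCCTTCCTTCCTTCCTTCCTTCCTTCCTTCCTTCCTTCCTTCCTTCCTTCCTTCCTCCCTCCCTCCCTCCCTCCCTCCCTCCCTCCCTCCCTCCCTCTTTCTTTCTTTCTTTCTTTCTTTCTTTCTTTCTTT

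The window near Gm30214 had 140 of its 200 bases in such repeats and that near Mir6546 had 33, while that near Ccr1 had 0. The next window is the centre of the gained enhancer with an H3K27ac peak in GSK alone, near Macroh2a1, the gene of a histone H2A variant. The last 2 are centred on the strongest Veh LSD1 peaks that overlapped gained enhancers, near Tspan32, a tetraspanin gene, and Ccr6, a chemokine receptor gene. In these 3 windows capitals mark matches to the motifs listed further on.

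Macroh2a1 chr13:56142680-56142879: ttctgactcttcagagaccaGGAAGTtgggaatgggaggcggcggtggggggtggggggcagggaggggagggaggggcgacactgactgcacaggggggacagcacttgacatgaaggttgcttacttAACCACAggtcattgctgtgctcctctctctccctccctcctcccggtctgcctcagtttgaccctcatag
Tspan32 chr7:142995078-142995277: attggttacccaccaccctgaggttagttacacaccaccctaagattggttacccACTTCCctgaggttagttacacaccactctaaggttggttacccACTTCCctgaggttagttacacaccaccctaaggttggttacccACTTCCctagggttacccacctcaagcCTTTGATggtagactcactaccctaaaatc
Ccr6 chr17:8251748-8251947: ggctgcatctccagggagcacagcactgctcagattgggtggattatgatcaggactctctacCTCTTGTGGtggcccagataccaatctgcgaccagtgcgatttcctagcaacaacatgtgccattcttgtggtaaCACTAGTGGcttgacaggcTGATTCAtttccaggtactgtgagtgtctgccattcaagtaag

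The Macroh2a1 window held 1 ETS and 1 RUNX match, the Tspan32 window 3 ETS matches and 1 TCF/LEF match, and the Ccr6 window 2 CTCF matches and 1 AP-1 match. The LSD1 summits near Tspan32 and Ccr6 lay 231 and 207 bp outside the H3K4me1 region that the LSD1 peak overlapped. The windows around these summits therefore held no base of a gained enhancer, and their matches are not matches in one.

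Gained enhancers were chosen by their GSK H3K4me1 peaks, so the strength of those peaks is a description. Each gained enhancer consisted of 1 GSK peak, and together they took 14.9% of the 40272 GSK H3K4me1 peaks. Their median −log10 q was 4.48 (4.44 to 4.51), against 6.51 (6.46 to 6.56) for the GSK peaks at shared enhancers, and at a median they stood at percentile 23.0 of the GSK list. A −log10 q under 5 was found at 64.8% of gained and 24.5% of shared enhancers, and a value of 10 or more at 1.61% and 16.9%. By contrast, the median fold enrichment over background was alike, at 3.95 for gained and 3.84 for shared enhancers. Among enhancers whose GSK peak had a −log10 q of 3 to 4, 59.7% were gained, and this share decreased through 39.0%, 21.3% and 8.92% to 3.1% at 10 or more.

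**Figure D1:**
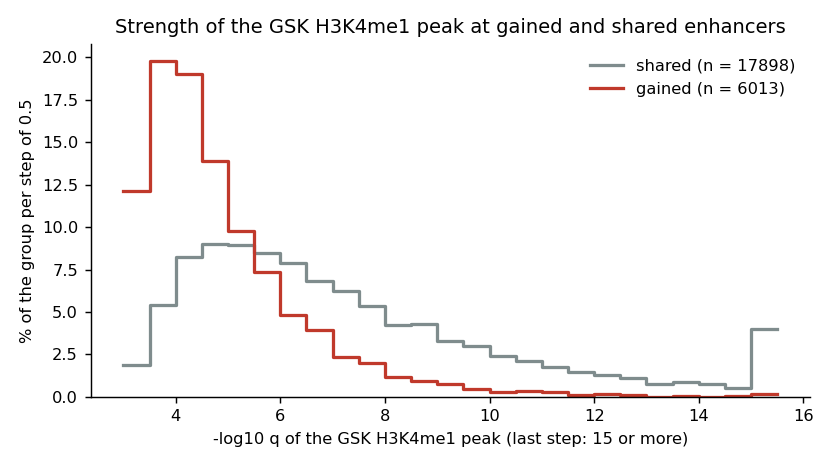
Share of gained (red) and shared (grey) enhancers in steps of 0.5 of the −log10 q of their GSK H3K4me1 peak, with all values of 15 or more in the last step. Gained enhancers, which were selected on these peaks, lie mostly to the left, with a median of 4.48 against 6.51.

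The GSK H3K4me1 list was longer than the Veh list of 34387 peaks, and the study states more reads for the GSK H3K4me1 library. It also states that reads were drawn at random to equal numbers for comparing signals. Whether the peak lists came from the drawn reads is not said outright. When the GSK list was shortened to the Veh number by significance and the enhancers were rebuilt, 3880 enhancers were gained and 4193 were lost. The excess of gained over lost enhancers therefore did not hold at equal list length. With a −log10 q of at least 5 in both lists and the enhancers rebuilt, 4949 were gained and 2459 lost. Regions whose Veh peak fell below that limit counted as gained there, so these 4949 are not the stronger part of the 6013. Of the 6013, 3898 had a GSK −log10 q under 5.

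At the limits of the definition, the gained enhancer nearest to a TSS was chr5:30548337-30549552, with its edge 2501 bp from a TSS of Cib4, and a region left out near Rgmb lay 2499 bp from one. The gained enhancer closest to a Veh H3K4me1 peak lay 3 bp from it, near Tnik. The shared enhancer with the least Veh H3K4me1, near Glt8d2, had 270 bp of it. The weakest member, near Pold3, had a −log10 q of 3.01. A Veh H3K4me1 peak lay within 1 kb of 3.24% and within 5 kb of 30.1% of gained enhancers, and the median distance was 8589 bp (8294 to 8912).

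The 10 members with the most significant GSK peaks had no H3K27ac or Pol II peak. The first was chr1:171073663-171074269, 9.31 kb upstream of the microRNA gene Mir6546, with a fold of 3.93 at a −log10 p reaching 28.5. It also had LSD1 peaks in both treatments, with folds of 4.11 in Veh and 4.74 in GSK. The second, chr9:123932236-123932511, lay 36.3 kb from Ccr1, which encodes a receptor for inflammatory chemokines, and had a fold of 2.81 and no other peak. The third, chr14:53166072-53166470, lay within the T cell receptor alpha locus and had the highest H3K4me1 fold of the 10, at 8.1, with a GSK H3K4me2 peak of 7.32 fold. The member at chr5:33265973-33267261 lay in an intron 8.39 kb downstream of the TSS of Ctbp1, which encodes a corepressor, and had a fold of 5.24 and a Veh LSD1 peak of 3.43 fold without a GSK one. In 5 of the 10, at least 50% of the central 500 bp was repeat-masked, as in chr5:142381864-142382384 near Foxk1, a forkhead factor gene, with 70.6%, a fold of 2.64 at a −log10 p of 17.8. Of the rest of the 10, 4 lay near Kis2, Mir7032, LOC105245613 and 5430421F17Rik, and the last, near the olfactory receptor gene Olfr155, had a fold of 7.73.

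Gained enhancers were short. Their median width was 474 bp (466 to 482), close to the 432 bp of lost enhancers and far below the 1205 bp of shared ones. They made up 22.5% of enhancers but 12.2% of enhancer bases. Of enhancers under 300 bp wide, 65.8% were gained, and of those of 2 kb or more, 1.36%. The widest member was chr14:73397720-73400501, 2782 bp wide and 13.8 kb upstream of Itm2b, which encodes a membrane protein, with a fold of 2.63 and Veh peaks of H3K27ac and Pol II. The member chr1:66551404-66553909 lay in an intron 84.7 kb downstream of the TSS of Unc80, a sodium leak channel gene, and had a Veh LSD1 peak of 8.28 fold. A member of 2473 bp lay 27.5 kb upstream of Mir181a-2, whose product tunes T cell receptor signalling, with a Veh LSD1 peak of 3.62 fold and a GSK H3K4me2 peak of 6.11 fold. The other 7 of the 10 widest, near Rpp21, Cse1l, Stxbp5, Tha1, Ncoa3, Gm35994 and Mbp and from 2505 to 2593 bp wide, had no LSD1, H3K4me2, H3K27ac or Pol II peak.

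LSD1 binding was examined because the enzyme is the target of GSK and its substrate is the mark that defined these enhancers. A Veh LSD1 peak overlapped 5.99% (5.42 to 6.62) of gained, 23.4% (22.8 to 24.0) of shared and 4.1% (3.41 to 4.93) of lost enhancers. With GSK the shares were 4.27%, 15.9% and 2.20%. With a −log10 q of at least 5 in both H3K4me1 lists, the Veh shares were 12.3% of gained and 30.3% of shared enhancers. The gained enhancers of that setting included regions with a weaker Veh H3K4me1 peak. LSD1 was called in Veh only at 259 gained enhancers (4.31%, against 10.1% of all enhancers), in GSK only at 156 (2.59%, against 4.58%) and in both at 101. Over all widths and peak strengths, gained enhancers thus lay below the background for LSD1 in Veh only and for LSD1 in GSK only. Within 5 kb, a Veh LSD1 peak was found for 23.3% of gained, 37.5% of shared and 21.8% of lost enhancers.

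Width moved with these shares. Among enhancers under 500 bp wide, a Veh LSD1 peak lay at 3.66% (3.07 to 4.37) of gained and 4.6% (3.49 to 6.04) of shared enhancers. At 500 to under 1000 bp the shares were 7.36% (6.32 to 8.57) and 9.39% (8.65 to 10.2), and at 1000 to under 2000 bp they were 11.4% (9.19 to 13.9) and 26.7% (25.7 to 27.6). Where the GSK peak also had a −log10 q under 5, the shares at 500 to under 1000 bp were 5.38% (4.32 to 6.7) and 5.88% (4.90 to 7.04), and their intervals overlapped. At 1000 to under 2000 bp they remained apart at this strength, with 8.87% (6.58 to 11.9) of gained and 14.4% (12.9 to 16.1) of shared enhancers. For GSK LSD1 at this strength, the shares under 500 bp were 2.51% (1.91 to 3.28) of gained and 2.06% (1.05 to 4.02) of shared enhancers. At 500 to under 1000 bp they were 3.59% (2.73 to 4.7) and 3.26% (2.55 to 4.17), with overlapping intervals in both pairs. At 1000 to under 2000 bp they were 3.33% (2.03 to 5.41) and 7.56% (6.43 to 8.87). The summit of the Veh LSD1 peak lay inside the enhancer for 73.6% (68.8 to 77.9) of the gained and 93.4% of the shared enhancers that had one.

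**Figure D2:**
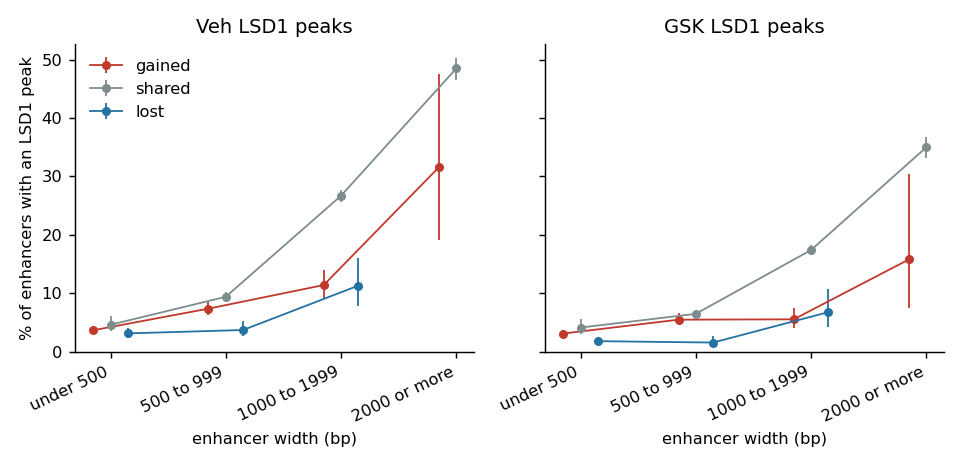
Share of gained (red), shared (grey) and lost (blue) enhancers with an LSD1 peak in Veh (left) and GSK (right), by enhancer width in bp, with bars for Wilson 95% intervals. At 500 to under 1000 bp lost enhancers lie lowest, with 3.7% in Veh, and at 1000 to under 2000 bp shared enhancers reached 26.7% while gained and lost ones lie together at 11.4% and 11.3%. Lost enhancers of 2000 bp or more, of which there were 5, are not drawn.

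The share with Veh LSD1 rose with the strength of the GSK H3K4me1 peak, from 4.16% of gained enhancers at a −log10 q of 3 to 4 to 18.6% (12.1 to 27.4) of the 97 at 10 or more. Shared enhancers went from 7.88% to 39.0% over the same range. The strongest Veh LSD1 peak that overlapped a gained enhancer did so at chr7:142995409-142996172, 9.26 kb upstream of Tspan32. It had a fold of 19.8 in Veh, and there was no peak in GSK. At chr17:8252055-8252565, in an intron 7.25 kb downstream of the TSS of Ccr6, the overlapping LSD1 peaks had folds of 18.4 in Veh and 10.9 in GSK. The summits of both Veh peaks lay outside these enhancers. Members near Trerf1, a transcriptional regulator gene, and Ssh2, which encodes a cofilin phosphatase, had Veh folds of 12.6 each and GSK folds of 6.27 and 4.54, and one near Zfp862-ps had 13.2 in Veh alone. The order was the other way round near Eef1akmt1, a lysine methyltransferase gene, with folds of 7.6 in Veh and 11.2 in GSK, near Nsd3, which encodes an H3K36 methyltransferase, with 6.08 and 8.96, and near Nup210, a nuclear pore gene, with 4.08 and 9.67. A member near Rn4.5s had LSD1 folds of 11.9 in Veh and 9.46 in GSK and 41 CpG in its central 500 bp, where the median of gained enhancers was 5. Folds of separate libraries are not on a common scale.

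Marks of active enhancers were rare at gained enhancers. H3K4me2, which takes part in the definition of an enhancer, was called in GSK only at 13 of them (0.216%, against 0.945% of all enhancers) and in Veh only at 52 (0.865%, against 6.3%). The GSK list of 9437 H3K4me2 peaks was shorter than the Veh list of 15219, and the study states fewer reads for the GSK H3K4me2 library. The part of list length in these H3K4me2 counts was not tested. A Veh H3K4me2 peak overlapped 1.1% of gained and 11% of shared enhancers. H3K27ac was called at 27 gained enhancers in Veh (0.449%) and 2 in GSK (0.0333%). The shares were 3.35% and 0.705% of all enhancers, and 4.55% and 0.983% of shared ones. The GSK list of 2751 H3K27ac peaks was shorter than the Veh list of 7410. The study states far fewer reads for the GSK than for the Veh H3K27ac library, and the part of read number in these counts was not tested. Pol II lay at 21 gained enhancers in Veh (0.349%) and 15 in GSK (0.249%). The shares were 1.49% and 1.13% of all enhancers, and 2.01% and 1.5% of shared ones. Gained enhancers were also shorter than shared ones, and the part of width in the shares of these marks was not tested.

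Of the 2 members with GSK H3K27ac, chr13:56142600-56142960, 7.23 kb upstream of Macroh2a1, had a GSK peak of 5.71 fold and a GSK LSD1 peak of 4.34 fold, and neither in Veh. The other, chr10:59905963-59908180 near Dnajb12, a chaperone gene, was the one place where all 4 of LSD1, H3K4me2, H3K27ac and Pol II were called in both treatments, with H3K27ac folds of 3.65 in Veh and 4.18 in GSK. Its H3K4me1 fold in GSK was 1.9, and a Veh H3K4me1 peak began 511 bp away. Further members with Veh H3K27ac lay near 4930559C10Rik (4.85 fold), Gm13749 (4.72 fold), Car2, a carbonic anhydrase gene (4.68 fold), Arf6, a small GTPase gene (4.63 fold), and Ifne, an interferon gene (4.13 fold). The highest GSK Pol II folds were 4.49 at a member 21.9 kb upstream of Utp14a, a ribosome biogenesis gene on chromosome X, and 4.33 at one 62.7 kb upstream of Tspan3, which also had H3K4me2 and LSD1 in both treatments. Pol II in GSK alone was also found near Smad7 (3.62 fold), Gm13853 (3.46 fold), Gjb1 (3.27 fold), Dleu7 (3.25 fold), Snx29 (3.21 fold) and Pmepa1 (3.21 fold), and a member near 4921511C10Rik had Pol II in both treatments, with 3.97 fold in Veh and 4.07 in GSK.

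The sequence of gained enhancers was close to that of the other classes in base composition. Sequence was read in a fixed window of 500 bp around the centre, which at narrower enhancers also held flanking bases. Under 500 bp wide were 3224 of the gained, 1044 of the shared and 1568 of the lost enhancers. The part of these flanks in the shares of repeats, GC content and motifs was not tested. The median GC content of the window was 47.2% (47.0 to 47.2) for gained, 47.6% (47.4 to 47.6) for shared and 46.8% (46.6 to 47.2) for lost enhancers. The extremes differed more, since 2.79% (2.41 to 3.24) of gained, 1.89% (1.7 to 2.1) of shared and 1.37% (0.989 to 1.89) of lost enhancers had a GC content of at least 60%. Repeats were more frequent. At least 50% of the window was repeat-masked in 16% (15.1 to 17.0) of gained, 9.72% (9.29 to 10.2) of shared and 11.1% (9.91 to 12.3) of lost enhancers. Short tandem repeats, a measure added after the strongest sequences had been seen, filled at least 20% of the window in 2.1% (1.76 to 2.49) of gained, 0.816% (0.694 to 0.958) of shared and 0.798% (0.522 to 1.22) of lost enhancers. At a GSK −log10 q of 7 to 10 this share was 4.1% of gained and 1.1% of shared enhancers.

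Motifs of lymphocyte transcription factors were searched on both strands of the same windows as fixed letters: RUNX TGTGGTT, ETS GGAAGT, AP-1 TGANTCA, CRE TGACGTCA, T-box GGTGTGA, TCF/LEF CTTTGAT, the E-box of the ZEB type CACCTG, the palindromic E-box CAGCTG, GFI1 AAATCAC, STAT TTCNNNGAA, IRF GAAANNGAA, NF-kB GGGANTTTC, CTCF CCANNAGNG, NR4A AAGGTCA, the GC box GGGCGGG and AGATAA for GATA factors. Matches of different motifs could overlap. An AP-1 match was present in 18.5% (17.5 to 19.5) of gained, 22.4% (21.8 to 23.0) of shared, 21.0% (19.5 to 22.6) of lost and 21.3% of all enhancers. ETS matches were present in 38.5% (37.2 to 39.7) of gained, 42.3% (41.6 to 43.1) of shared, 39.4% of lost and 41.1% of all enhancers. For RUNX the shares were 19.8% (18.8 to 20.8), 22.3% (21.7 to 22.9), 19.2% and 21.4%. The difference between gained and shared enhancers was -3.93 percentage points (-5.07 to -2.76) for AP-1 and -3.89 (-5.31 to -2.46) for ETS, and the same order was seen where the GSK −log10 q was under 5 (AP-1 19.9% against 23.8%). GFI1, the motif of a repressor that recruits LSD1, was present in 6.64% of gained, 6.55% of shared and 6.61% of all enhancers, and the ZEB-type E-box in 33.8%, 35.1% and 34.6%. The order for GFI1 depended on the setting, with 3.08% of gained and 2.46% of shared enhancers in a 200 bp window and 6.67% and 7.32% where the GSK −log10 q was under 5. The GC box was present in 8.1% of gained, 7.15% of shared and 7.37% of all enhancers and the IRF motif in 18.4%, 17.1% and 17.7%.

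The remaining shares among gained and all enhancers were 0.366% and 0.521% for CRE, 10.1% and 9.54% for T-box, 8.17% and 8.07% for TCF/LEF, 25.5% and 26.9% for the palindromic E-box, and 15.4% and 16.7% for STAT. They were 1.71% and 1.96% for NF-kB, 27.5% and 27.7% for CTCF, 9.33% and 9.93% for NR4A, and 22.4% and 22.7% for GATA.

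**Figure D3:**
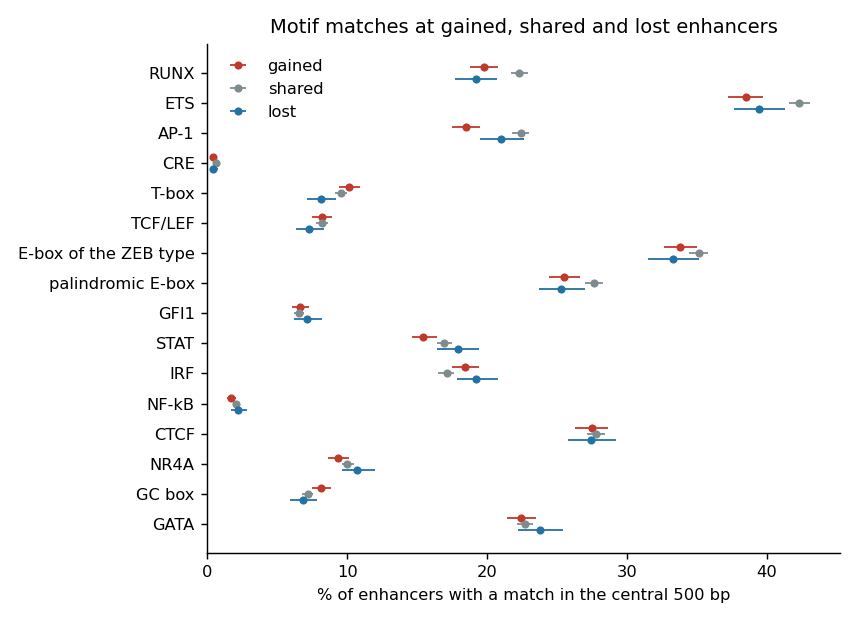
Share of gained (red), shared (grey) and lost (blue) enhancers with at least 1 match to each motif in the 500 bp around the centre, with bars for Wilson 95% intervals. Gained points lie left of shared ones for RUNX, ETS and AP-1, and the points lie close together for GFI1, CTCF and GATA.

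Gained enhancers lay at the distances from genes that were usual for enhancers. Their median distance to the nearest TSS was 21436 bp (20648 to 22143), against 22903 bp for shared and 23975 bp for lost enhancers. The centre lay in an intron for 51.1%, in an exon for 3.96% and between genes for 44.9%, against 50.1%, 3.73% and 46.2% of shared enhancers. The promoters of their nearest genes were also marked like those of shared enhancers: Pol II was called in GSK only at 4.01% (3.54 to 4.53) and 4.08%, and in Veh only at 10.3% and 10.3%. These are shares of enhancers, so a gene nearest to several counted several times, which the interval does not allow for. Counted by gene, the shares were 2.94% and 7.33% over all 26180 genes. Over the 16135 genes that were nearest to no H3K4me1 enhancer they were 2.39% and 6.24%. Of genes nearest to gained but no lost enhancers, 3.95% (3.33 to 4.67) had Pol II in GSK only, and of genes nearest to lost but no gained ones, 3.37% (2.49 to 4.56). Of all genes nearest to H3K4me1 enhancers but to no gained one, 3.67% (3.22 to 4.19) did, and these intervals overlapped. Pol II in Veh only was called at 9.26%, 9.61% and 8.84% of these groups, in the same order.

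The gap from a gained enhancer to the next enhancer of any class had a median of 10509 bp (10165 to 11070), and 9776 bp for shared enhancers. The next enhancer was gained for 21.5% (20.5 to 22.5) of gained and 21.9% (21.3 to 22.5) of shared enhancers. The order of this pair depended on the setting. With the enhancers rebuilt at a −log10 q of at least 5 in both lists, the shares were 27.1% (25.9 to 28.4) and 25.8%. The next enhancer was lost for 12.9% (12.1 to 13.8) of gained and 9.33% (8.91 to 9.77) of shared enhancers. Among enhancers whose next enhancer was a lost one within 10 kb, 32.6% (30.2 to 35.1) were gained. These classes come from the same peak lists, so the neighbour counts are a description.

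With gaps of at most 10 kb, 5356 gained enhancers stood alone, and there were 294 runs of 2, 20 runs of 3, 1 of 4 and 1 of 5. The run of 5, chr11:118228383-118242541, spanned 14.2 kb nearest to Cyth1, a regulator of integrin adhesion, with folds of 1.87 to 2.15 and no LSD1 peak. The run of 4, chr6:136946721-136966593, spanned 19.9 kb nearest to Arhgdib and Pde6h, with folds of 2.12 to 3.98. The tightest runs of 3 lay near B930018H19Rik (5.54 kb), near Prkch (8.21 kb), a protein kinase C gene active in T cells, and near C920009B18Rik (8.43 kb).

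The 6013 enhancers were nearest to 4300 genes, and 3182 of these had 1. The genes named next are the 10 with the most, so high counts and shares among them follow partly from that choice. Tle3, a Groucho-type corepressor, and Bcl2l11, which encodes the death factor BIM, had 10 each, out of 24 and 27 enhancers. At Tle3 all 10 lay downstream of the TSS, from 5.70 to 240.0 kb, with folds of 2.21 to 4.42. At Bcl2l11, 4 lay upstream and 6 downstream, with folds of 2.46 to 4.77. At both genes none of the 10 had a Veh LSD1 peak and 1 had a GSK one, whereas within 200 kb of the TSS Veh LSD1 lay at 3 shared enhancers nearest to Tle3 and 5 nearest to Bcl2l11. Over the whole classes, Veh LSD1 lay at 5.99% of gained and 23.4% of shared enhancers. The Tle3 promoter had a Pol II peak in Veh and none in GSK, and that of Bcl2l11 had one in both.

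Cxcr4, whose product guides T cells towards bone marrow, had 9 gained of 25 enhancers. A group of 3 lay 9.53 to 17.1 kb upstream, with folds of 2.27, 1.99 and 1.78. They were not a run of successive gained enhancers, since a lost enhancer lay among them. The other 5 upstream members, 104.0 to 216.0 kb away, had folds of 2.72 to 4.25. Setbp1 and Atp10a, a phospholipid flippase gene, had 9 each, of 35 and 38 enhancers. Rybp, a Polycomb subunit, had 8 of 14 (57.1%), all without LSD1, which 5.99% of all gained enhancers had in Veh. Icos, a costimulatory receptor, had 7 of 14 (50.0%), from 23.8 kb upstream to 107.0 kb downstream. Sipa1l1 had 7 of 21. Dad1 had 8 of 32 and Gm30214 had 7 of 35, and all of these lay inside the T cell receptor alpha locus. In that locus (chr14:52427967-54224198), 16 of 69 enhancers were gained, or 23.2% (14.8 to 34.4), which is near the 22.5% of all enhancers. In the immunoglobulin heavy chain locus, 10 of 86 were gained, or 11.6% (6.44 to 20.1). In the T cell receptor beta locus 3 of 16 were, or 18.8% (6.59 to 43.0), and in the gamma locus 0 of 12 (0.0 to 24.2). The beta and gamma intervals both held 22.5%.

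**Figure D4:**
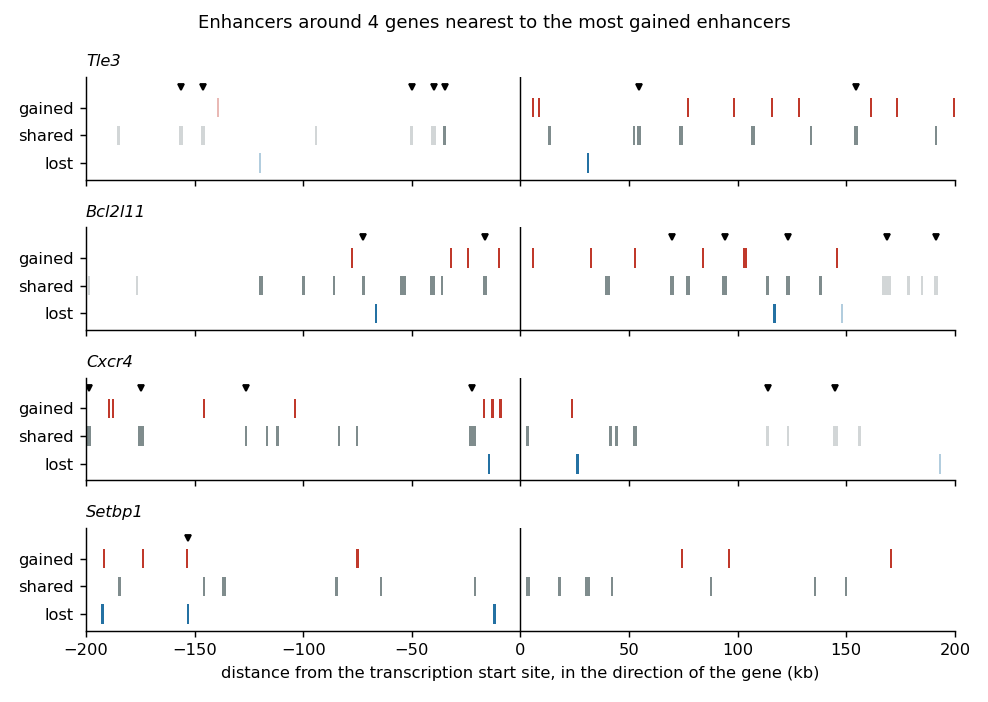
Gained (red), shared (grey) and lost (blue) enhancers within 200 kb of the TSS of Tle3, Bcl2l11, Cxcr4 and Setbp1, in kb along the direction of the gene, with regions drawn at least 1 kb wide and paler where another gene is nearer. Triangles mark enhancers of any class with a Veh LSD1 peak, which sit over shared enhancers at Tle3 and Bcl2l11 and over none of their gained ones.

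In 10 of 11 gene lists the share of enhancers that were gained had an interval that held the 22.5% of all enhancers. Among memory and progenitor genes 20 of 100 enhancers were gained (20.0%, 13.3 to 28.9), nearest to 9 of 16 genes. Foxo1, a factor of T cell quiescence, had 4 of 12, with folds of 2.54 to 5.37 and a GSK H3K4me2 peak of 4.38 fold at one of them, and Il7r, the IL-7 receptor gene, 3 of 8, all 59.2 to 93.4 kb upstream. S1pr1, needed for exit from lymph nodes, had 3 of 9 and Bach2, which restrains effector genes, 3 of 23. Eomes, a T-box factor, had 2 of 4, at 15.2 kb upstream (3.95 fold) and 4.23 kb downstream (2.64 fold), and Lef1 had 2 of 13. None of these 17 regions had an LSD1 peak in either treatment, which is near the background, since 5.99% of all gained enhancers had one in Veh and 4.27% in GSK. Slamf6, a marker of progenitor cells, was the nearest gene of 1 enhancer, 12.5 kb upstream, which was gained with a fold of 4.29. The study reports a putative Slamf6 enhancer downstream of its TSS, bound by LSD1, which this count by nearest TSS does not hold. Tcf7 had 0 of 5.

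Among effector and exhaustion transcription factors 18 of 104 were gained (17.3%, 11.2 to 25.7). Maf had 4 of 25 with folds of 3.58 to 4.98, Tox, a factor of exhaustion, 3 of 14, Runx3 3 of 17, and Prdm1, Irf4 and Ikzf2 had 2 each. At Tox, 2 of the 3 had LSD1 in both treatments, with Veh folds of 4.28 and 4.26, and at Runx3 a member 35.7 kb upstream had a Veh LSD1 peak of 7.02 fold and none in GSK. Inhibitory receptors had 5 gained of 35 (14.3%, 6.26 to 29.4), of which 3 were nearest to Ctla4, and within 100 kb of their TSSs 16 of 73 enhancers were gained (21.9%). None was gained at Pdcd1 (of 2 enhancers), Havcr2 (of 4), Lag3 (of 1), Tigit (of 4), Entpd1 (of 5) and Btla (of 3). These counts are too small to set beside the 22.5% of all enhancers. Effector molecules had 10 of 48 (20.8%, 11.7 to 34.3), with 3 near Fasl, the Fas ligand gene, and 2 each near Ifng and Ccl5.

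Chemokine receptors and integrins had 17 of 53 (32.1%, 21.1 to 45.5), of which 9 belonged to Cxcr4 and 3 to Itgae, the CD103 gene. At Itgae a member 10.7 kb downstream of the TSS had a Veh LSD1 peak of 10.2 fold and no GSK one. Cytokine receptors had 18 of 73 (24.7%, 16.2 to 35.6). Il12rb2 had 3 of 7 and Il18r1 3 of 5, both receptors of signals that raise interferon-γ, Il15ra, which presents IL-15, had 2 of 2, Il18rap 2 of 3 and Il21r 2 of 9. T cell receptor signalling genes had 9 of 36 (25%, 13.8 to 41.1), with 3 near Cd28 and 2 near Cd8a. LSD1 and corepressor genes had 3 of 24 (12.5%, 4.34 to 31.0), B cell genes 1 of 3 and myeloid genes 3 of 13. Within 100 kb of the TSSs the shares were 24.6% for LSD1 and corepressor genes (17 of 69) and 17.9% for B cell genes (7 of 39). Long neuronal genes, the list whose interval lay above 22.5%, had 3 of 4 (75%, 30.1 to 95.4), 2 of them near Cntnap2.

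By chromosome the gained share ranged from 20.3% (18.6 to 22.2) on chromosome 11 to 25.1% (23.2 to 27.1) on chromosome 1 among the autosomes. On chromosome X it was 33.0% (28.4 to 37.9), or 125 of 379, and the lost share there was also higher, at 16.4% (13.0 to 20.4), than over the autosomes. The shared X enhancers had weaker peaks, with a median −log10 q of 5.09 in GSK and 5.04 in Veh against 6.53 and 6.01 on the autosomes. The part of peak strength in the X shares was not tested.

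**Figure D5:**
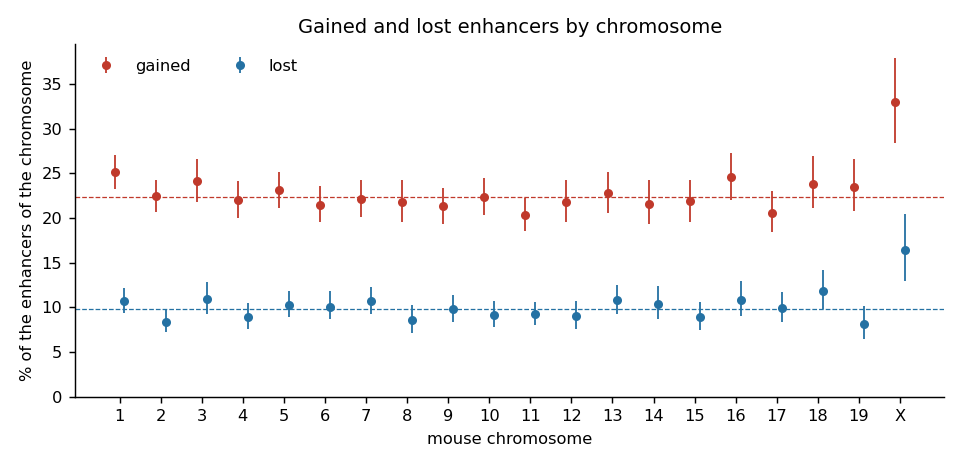
Share of the enhancers of each chromosome that were gained (red) and lost (blue), with bars for Wilson 95% intervals and dashed lines for all autosomes. The autosomes lie between 20.3% and 25.1% gained, and chromosome X lies above them in both classes, with 33.0% gained and 16.4% lost.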

How the data were processed

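CD8+ T cells of OT1 mice were profiled in 16 samples, of which 12 ChIP libraries had a peak list and 4 inputs were not analysed here. The authors mapped reads to mm10 with Bowtie2, removed duplicates with Samtools and called peaks in each library with MACS2. They also drew reads at random to equal numbers for comparing signals, without saying outright whether peaks were called on the drawn reads. Broad histone peaks carry no summit, and their deposited fold enrichment is a ratio of pileup to background averaged over the region. The authors also deposited −log10 p and −log10 q values, and a score column that repeats −log10 q (histone lists) or −log10 p (LSD1 and Pol II lists) on a 10 times larger scale. Coordinates are 1-based.

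Peaks were merged and overlapped at 1 bp with Python 3.11.15, pandas 2.3.3 and numpy 2.4.6, and intervals (Wilson for shares, order statistics for medians) came from scipy 1.17.1. The steps were tested on simulated peaks. TSSs (31603 positions of 26180 genes) were those of curated RefSeq transcripts in GRCm38.p6, and the nearest gene was that of the TSS nearest to the region's centre. A promoter was the 1 kb on either side of a TSS. Sequence was read from GRCm38.p6, in which lower-case bases were counted as repeat-masked.

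Members, the 11 gene lists (inhibitory receptors, effector molecules and cytokines, memory and progenitor genes, effector and exhaustion transcription factors, chemokine receptors and integrins, cytokine receptors, T cell receptor signalling, LSD1 and corepressors, B cell, myeloid and long neuronal genes) and motifs were chosen with earlier results of these data known. Named were the 10 strongest and 10 widest members, the 10 genes nearest to most members, the 5 longest runs, up to 10 members with H3K27ac or GSK Pol II by fold, the 5 with the strongest LSD1 peak in each treatment, members at the limits, and listed genes nearest to at least 2 members. Slamf6, Tcf7, inhibitory receptors without a member, the receptor loci and the width and strength splits were named after their values were seen. Depth was not computed, since the peak lists do not give reads. The study's supplement states read numbers per library, which are not used as values here.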

Additional observations from a re-analysis of the deposited data

How the results depend on the processing

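Of 92 alternative values, 56 stayed within the counting interval of the main value or, for the number of gained enhancers, within 1.5 times of it, and 36 moved, among them all 16 motif shares, which were lower in the 200 bp window. Counting enhancers within 100 kb of the listed genes, all 11 list shares stayed within intervals that were wide for short lists, yet those of inhibitory receptors, LSD1 and corepressor genes and B cell genes moved by over 1.5 times, to 21.9%, 24.6% and 17.9%. With the GSK H3K4me1 list shortened to the Veh number, 3880 enhancers were gained, their GC content was 47.6%, Veh LSD1 lay at 6.96% of them (24.8% of shared), and the next enhancer was gained for 15.4% (15.6% of shared). With a −log10 q of at least 5 in both lists, regions with a weaker Veh peak also counted as gained. In that setting the median width was 668 bp, the next enhancer lay 14858 bp away and GC content was 47.6%. GSK H3K4me2 lay at 1.27%, Veh LSD1 at 12.3% (30.3% of shared) and a gained neighbour at 27.1% (25.8% of shared). Leaving out members with a Veh peak within 1 kb gave a next enhancer at 11092 bp. At least 5 kb from a TSS, the TSS distance was 24685 bp and the next enhancer lay at 11287 bp, and with all RefSeq transcripts these were 14445 and 11491 bp. Counting next enhancers within 10 kb alone, 18.5% were gained (22.1% for shared). Of 2 alternatives chosen after seeing the data, leaving out chromosome X moved no value, and a GSK −log10 q under 5 kept 3898 gained enhancers with 46.6% GC, GSK H3K4me2 at 0.205% and Veh LSD1 at 4.64% (10.9% of shared). The causes of these moves were not tested. No paired analysis was possible because each antibody and treatment had 1 library and no test was run. A weak peak called in a single list can be present in the other below its threshold, and the peak lists do not show how deep each library was at these regions.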
